A study of Mus musculus and Homo sapiens with 10 samples.

Results

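Binding sites of the upstream binding factor (UBF) were compared with those of RNA polymerase II (Pol II) in NIH3T3 cells, an immortalized mouse fibroblast line. The members were all 3704 peaks of the UBF list and all 30239 peaks of the Pol II list, 33943 of the 208002 regions in the 10 lists of the series. Both were mapped by chromatin immunoprecipitation and sequencing (ChIP-seq) in unmodified, exponentially growing NIH3T3 cells kept in serum-containing medium. UBF was precipitated with a rabbit polyclonal antibody to both of its splice forms, UBF1 and UBF2, and Pol II with antibody 4H8, labelled as recognising the phosphorylated repeat at the C-terminus of its largest subunit. The 5 further NIH3T3 lists gave the chromatin around these sites: Pol I, trimethylated histone H3 lysine 4 (H3K4me3), acetylated H3 lysine 9 (H3K9ac), hyperacetylated H4 and trimethylated H3 lysine 9 (H3K9me3). Each antibody had 1 list (n = 1), so every value describes these lists, without replicate error and without a test.

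UBF is an HMG-box protein that binds along the ribosomal RNA genes, bends their DNA and helps to assemble the Pol I initiation complex. Pol II transcribes protein-coding genes and many small RNA genes, and the serines of its C-terminal repeat are phosphorylated during transcription, some mainly near gene starts and others mainly further along the gene. H3K4me3 and histone acetylation are marks of active promoters, and H3K9me3 is a mark of silent chromatin and repeats. The question put to the lists was how UBF, a Pol I factor, lies relative to Pol II across the genome.

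The lists differed in length and width. UBF peaks had a median width of 981 bp (quartiles 832 and 1194) and covered 3.97 Mb. Pol II peaks had a median of 683 bp (range 190 to 39438) and covered 26.8 Mb. Within each list no peak overlapped its neighbour. The lists carry no score or read count, so the depth behind a peak is unknown. Intervals given with shares are exact 95% binomial intervals over peaks. Such an interval reflects counting error alone, since neighbouring peaks are not independent of one another.

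Most UBF sites either lay on a Pol II peak or lay far from one. Of the 3704 UBF peaks, 1872 shared at least 1 bp with Pol II (50.5%, interval 48.9 to 52.2), and 1832 did not. These 1832 include 46 UBF peaks on contigs that the Pol II list names otherwise, for which overlap could not be assessed. On chromosomes 1 to 19 and X alone the share was 51.2% (49.6 to 52.8). In the other direction 1995 of the 30239 Pol II peaks met UBF (6.60%, 6.32 to 6.88), so UBF marked a small part of the Pol II sites. Distances could be measured for 3658 UBF peaks, leaving out those 46. Of these, 50.6% (49.0 to 52.2) had a Pol II centre within 1000 bp of their own centre, and 5.28% (4.57 to 6.05) had the nearest one between 1000 and 10000 bp away. The median distance over all 3658 was 847 bp, a value that few UBF peaks had, because it falls in the trough between both groups.

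**Figure D1:**
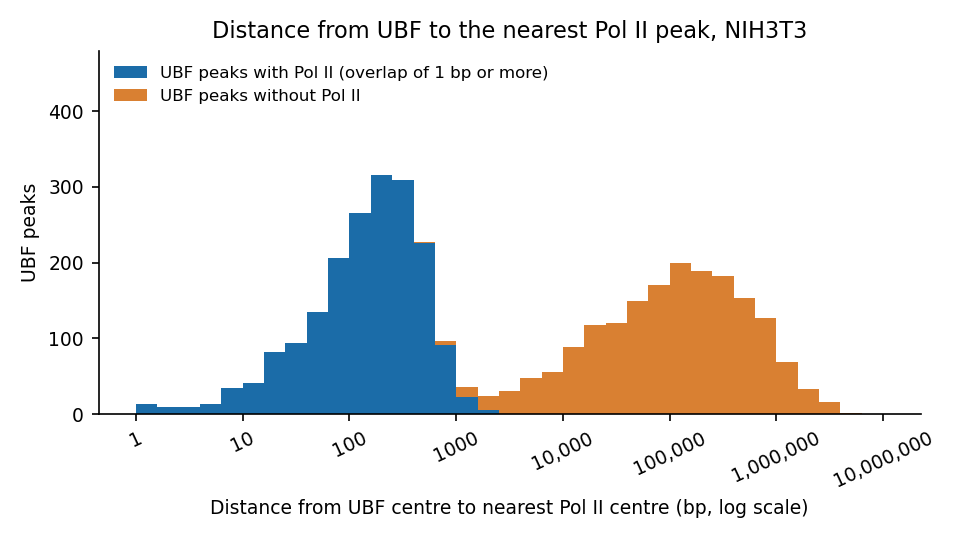
Number of UBF peaks (vertical axis) by the distance from their centre to the nearest Pol II centre in bp (horizontal axis, log scale), with UBF peaks that overlap Pol II in blue and those that do not in orange, stacked. The blue group has its median at 167.5 bp and the orange group at 124544 bp, with few UBF peaks between 1000 and 10000 bp.

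Where they met, UBF and Pol II were nearly centred on one another. The 1872 UBF peaks with Pol II had a median distance of 167.5 bp to the nearest Pol II centre (quartiles 68.5 and 320), and 88.2% (86.7 to 89.7) had it within 500 bp. Pol II covered a median of 90.4% of the width of these UBF peaks (quartiles 73.9 and 100), and it covered 542 of them whole. UBF covered a median of 80.4% of the width of the Pol II peaks it met (61.8 and 98.6), 471 of them whole. Among the 2018 overlapping pairs, UBF lay inside Pol II in 26.9%, Pol II lay inside UBF in 23.3%, and the peaks were staggered in 49.8%. Overlap at the edges alone was therefore uncommon: 90.9% of the UBF peaks with Pol II were covered over at least 50% of their width.

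The UBF peaks without Pol II were remote from it. Their nearest Pol II centre lay at a median of 124544 bp (quartiles 33212 and 352376) among the 1786 for which it could be measured. The gap between the edges was up to 2000 bp for 48 of them (2.69%), from there to 10000 bp for 136 (7.61%), to 100000 bp for 636 (35.6%), to 1000000 bp for 847 (47.4%), and over 1000000 bp for 119 (6.66%). Their active histone marks thinned out with that gap. From the nearest to the furthest class, H3K9ac went from 27.1% to 0 of 119 and H4 hyperacetylation from 31.3% to 0.840%. H3K4me3 was present at 31.3% (18.7 to 46.3) of those with a gap up to 2000 bp, at 5.88% (2.57 to 11.3) and 4.40% (2.95 to 6.30) in the next gap classes, at 0.708% (0.260 to 1.54) of those between 100000 and 1000000 bp, and at 0 of the 119 beyond. Pol I did not thin out in the same way. It met 2 of 48 (4.17%, 0.509 to 14.3) in the nearest class and 6.62%, 6.76% and 5.55% in the middle ones. In the last class it met 3 of 119 (2.52%, 0.523 to 7.19). H3K9me3 met 10.4%, 2.21%, 3.77%, 1.42% (0.734 to 2.46) and 1.68% from the nearest to the furthest class, and so did not fall at every step. These shares are not read as a measure of silent chromatin. The same list met 29.6% of the UBF peaks with Pol II, most of which had the active marks.

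UBF peaks with Pol II were wider than those without. Their median width was 1144 bp (quartiles 976 and 1444), against 872 bp (734 and 983) without Pol II. Over 10 width groups of nearly equal size, the share of UBF peaks with Pol II was 5.93% (3.75 to 8.84) in the narrowest group (216 to 692 bp), 32.4% and 32.3% in groups 3 and 4, 50.3% (45.0 to 55.5) in group 6, 77.9% (73.3 to 82.0) in group 8 and 93.5% (90.5 to 95.8) in the widest (1567 to 6865 bp). The balance of the whole list is thus an average over widths with very different shares. A wider UBF peak offers more sequence to meet, and how much of the rise this accounts for was not tested. With every peak of both lists set to 500 bp around its centre, 44.6% (43.0 to 46.2) of UBF peaks met Pol II.

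The histone marks divided the UBF peaks along the same line. H3K4me3 was present at 94.6% (93.4 to 95.5) of UBF peaks with Pol II and 3.11% (2.36 to 4.01) of those without, or 3.20% without on chromosomes 1 to 19 and X alone. H3K9ac stood at 94.2% with Pol II and 3.0% without, and H4 hyperacetylation at 95.1% with and 4.20% without. In the 10 width groups H3K4me3 ranged between 90.2% and 98.6% of the UBF peaks with Pol II, and between 0.860% and 11.1% of those without. Among the narrowest UBF peaks, H3K4me3 was present at 20 of 22 with Pol II and 3 of 349 without. When the UBF, Pol II and H3K4me3 lists were each cut to their wider 50%, H3K4me3 stood at 96.1% of UBF peaks with Pol II and 11.3% (8.94 to 14.1) of those without. In that setting a UBF peak that met only a narrower Pol II peak counted as without Pol II, so the 11.3% includes such sites. H3K9me3 met 29.6% (27.5 to 31.7) of the UBF peaks with Pol II and 2.51% (1.84 to 3.34) of those without. Among UBF peaks, this silent mark too was thus listed mostly at those with Pol II. Pol I, the polymerase that UBF serves on ribosomal RNA genes, met 8.92% (7.67 to 10.3) of the UBF peaks with Pol II and 5.68% (4.66 to 6.84) of those without.

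**Figure D2:**
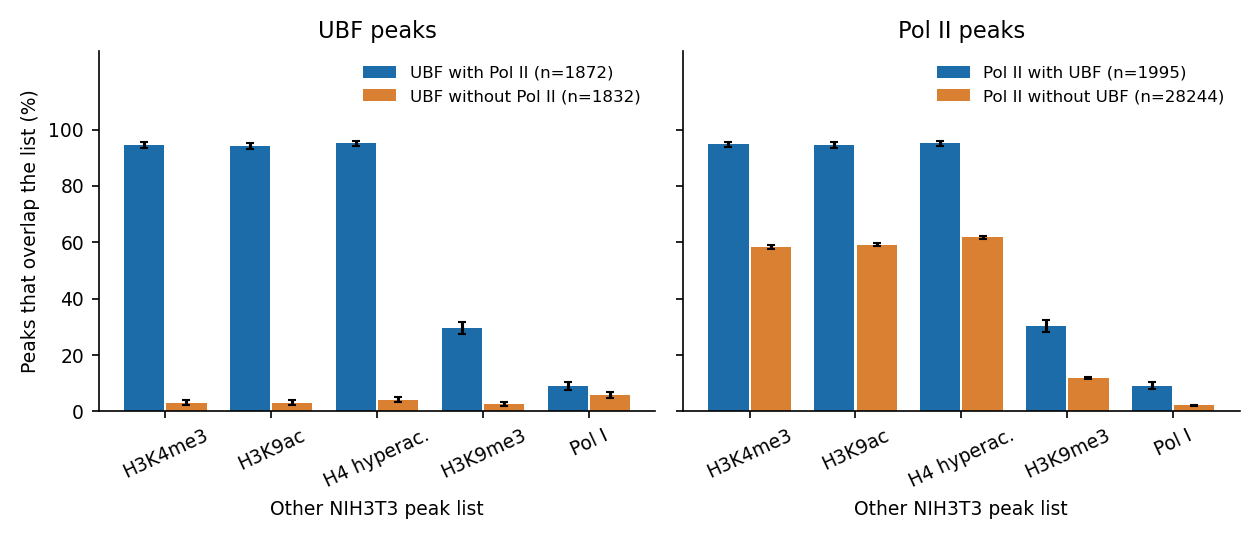
Share of peaks in percent (vertical axis) that overlap each of 5 other NIH3T3 lists (horizontal axis), for UBF peaks with and without Pol II (left) and Pol II peaks with and without UBF (right). Bars are shares and error bars exact 95% binomial intervals; UBF peaks without Pol II met H3K4me3 at 3.11%, Pol II peaks without UBF at 58.4%.

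Exceptions to this split were few. Among the UBF peaks with Pol II, 85 (4.54%, 3.64 to 5.58) had none of the 3 active marks. Among those without Pol II, 88 had at least 1 active mark, and 43 of these had all 3. No peak of the 5 further lists, Pol I included, overlapped 48 of the 1872 UBF peaks with Pol II (2.56%, 1.90 to 3.39) and 1619 of the 1832 without (88.4%, 86.8 to 89.8). The 1832 include the 46 UBF peaks on contigs that the Pol II list names otherwise. The 1619 may thus count some peaks whose overlap could not be assessed. Pol I with no histone list was found at 16 UBF peaks with Pol II (0.855%) and 88 without (4.80%).

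On the Pol II side, the share with UBF was higher in the wider peaks. UBF met 2.02% (1.72 to 2.36) of the 7573 Pol II peaks under 500 bp and 3.51% (3.22 to 3.83) of the 14381 from 500 to under 1000 bp. It met 14.7% (13.9 to 15.6) of the 6819 from 1000 to under 2000 bp and 22.8% (20.7 to 25.02) of the 1466 of 2000 bp or more. A wide peak offers more sequence to meet, so UBF centres were also counted per Mb of Pol II peak. There were 32.5 per Mb in the narrowest class, 38.4 and 105 in the next, and 78.1 in the widest, so the highest density was in the class from 1000 to under 2000 bp and not in the widest. With a UBF centre required within 500 bp of the Pol II centre, the shares from the narrowest to the widest class were 1.65%, 2.96%, 13.2% and 15.01%, and the intervals of the widest classes overlapped (12.4 to 14.1 and 13.2 to 16.9).

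How the share ran with width differed with H3K4me3, a difference that was not tested. At Pol II peaks with the mark, the share with UBF was 2.89% (2.30 to 3.59) under 500 bp, 5.54% (5.07 to 6.04) from 500 to under 1000 bp, 17.3% (16.3 to 18.3) from 1000 to under 2000 bp and 27.7% (25.2 to 30.3) at 2000 bp or more. At Pol II peaks without H3K4me3 the shares did not rise with width. They were 1.52% (1.19 to 1.91), 0.485% (0.323 to 0.700), 0.292% (3 of 1027, 0.0603 to 0.851) and 0 of 261 (interval up to 1.40%). The share under 500 bp lay above those from 500 to under 2000 bp. The intervals of the classes of 500 bp or more overlapped, so no order among these is read. In all, 1891 of the 1995 Pol II peaks with UBF carried H3K4me3 (94.8%, 93.7 to 95.7), against 58.4% (57.8 to 58.9) of the 28244 without UBF. Those with UBF were also wider (median 1271 bp against 658 bp). From the narrowest to the widest class, H3K4me3 was present at 52.3%, 94.5%, 99.7% and 100% with UBF. Without UBF it was present at 36.2%, 58.6%, 82.4% and 76.9%. The other marks at Pol II peaks also differed by UBF. H3K9me3 was listed at 30.3% (28.3 to 32.3) where UBF was present and 12.0% (11.6 to 12.3) where it was absent, and in the widest class at 58.7% (53.2 to 64.0) with UBF and 33.0% (30.2 to 35.8) without.

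**Figure D3:**
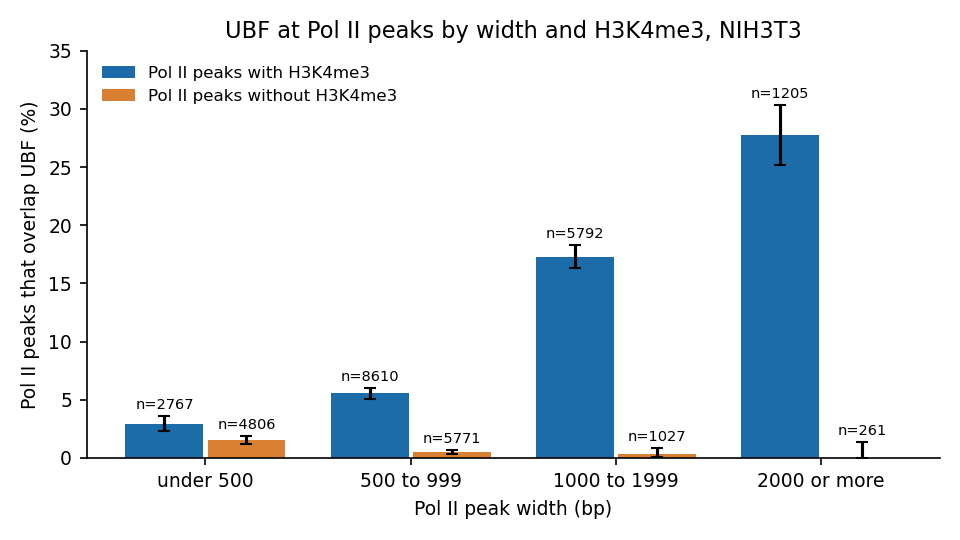
Share of Pol II peaks that overlap UBF in percent (vertical axis) by Pol II width class in bp (horizontal axis), for Pol II peaks with H3K4me3 (blue) and without (orange); n is the number of Pol II peaks and error bars are exact 95% binomial intervals. The blue shares run from 2.89% to 27.7% with width. The orange share is 1.52% in the narrowest class and 0.485% or less in the wider ones, whose intervals overlap.

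The UBF peaks were spread over these classes by the widest Pol II peak each one met. A Pol II peak of 1000 to under 2000 bp was the widest partner of 998 of the 1872 (53.3%, 51.0 to 55.6), one of 500 to under 1000 bp of 420 (22.4%), one of 2000 bp or more of 347 (18.5%) and one under 500 bp of 107 (5.72%). UBF was about as wide over narrow Pol II peaks as over middling ones. In pairs its median width was 1088 bp with Pol II under 500 bp, 1093 bp and 1146 bp in the next classes and 1500 bp with Pol II of 2000 bp or more. Narrow Pol II peaks were accordingly found inside UBF in 119 of 153 pairs (77.8%), whereas UBF lay inside Pol II in 222 of 348 pairs of the widest class (63.8%). The centres were 87.5 bp apart (median, quartiles 36.0 and 293) in pairs of the narrowest class and 366 bp (149 and 656) in those of the widest.

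Narrow Pol II peaks at UBF had other company than the wider ones. Of the 153 under 500 bp that met UBF, 73 lacked H3K4me3. Each of the 73 met its own UBF peak, 68 lay inside it, and the centres were a median of 59.0 bp apart (quartiles 24.0 and 94.0). They were spread over 20 chromosomes, with at most 7 on 1, and their UBF peaks had a median width of 1043 bp (955 and 1099). Pol I was listed at 20 of the 73 (27.4%, 17.6 to 39.1), against 7 of the 4733 narrow Pol II peaks without H3K4me3 and without UBF (0.148%, 0.0595 to 0.304). H3K9me3 was listed at 24.7% (15.3 to 36.1) of the 73 and 8.30% (7.53 to 9.13) of the 4733, and none of the 5 further lists at 40 of the 73 (54.8%) and 3849 of the 4733 (81.3%). For 15 of the 73, Pol I was the only further list, against 3 of the 4733. What DNA lies at these places was not examined, since no mm9 sequence was used.

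Most UBF peaks with Pol II met a single Pol II peak. Of the 1872, 1735 met 1 (92.7%, 91.4 to 93.8), 130 met 2 (6.94%), 5 met 3 and 2 met 4. The 137 that met several were wider, with a median of 1314 bp against 1132 bp for those that met 1. A wider UBF peak can reach more Pol II peaks, so part of that width is given by the choice of the 137. H3K4me3 was present at 136 of the 137 (99.3%, 96.0 to 99.98) against 94.2% (93.0 to 95.2) of those that met 1. Where a UBF peak met exactly 2, the gap between the Pol II peaks had a median of 82.0 bp (quartiles 31.0 and 174.5, longest 685 bp). Both had to reach the same UBF peak, so a gap shorter than that peak is given by the choice of these sites. Both Pol II peaks overlapped the same H3K4me3 peak in 98.5% of the 130. At such short gaps, a shared H3K4me3 peak is in part given by the choice of these sites. The wider of both Pol II peaks had a median width of 1098 bp and the narrower 559 bp. The centre of the UBF peak fell in the gap in 23 of the 130 (17.7%) and beside it in the rest. When Pol II peaks up to 500 bp apart were joined, 0.321% (interval 0.118 to 0.696) of the UBF peaks with Pol II still met several, so the count rests on how the Pol II list was divided. The converse was rarer: 23 Pol II peaks met 2 UBF peaks (1.15% of those with UBF, 0.732 to 1.72), and none met more. Their median width was 2223 bp (quartiles 1857 and 3406.5), which is likewise in part given by that choice.

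The UBF peaks with the most Pol II peaks met 4 each. One lay at chr11:120094909-120099255 (mm9, 4346 bp), with Pol II peaks of up to 1382 bp, and the other at chr13:40825229-40828223 (2994 bp), with Pol II peaks of up to 1500 bp. Both carried the 3 active marks and neither had Pol I or H3K9me3. The files name no genes, and no mm9 annotation was used, so peaks are given by position.

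UBF and Pol II were also placed relative to the H3K4me3 peaks they shared. An overlapping pair of UBF and Pol II was counted once for each H3K4me3 peak that both overlapped. This gave 1915 cases over 1735 H3K4me3 peaks, with a median H3K4me3 width of 3114 bp over the cases. The UBF centre was a median of 266.5 bp from the H3K4me3 centre (quartiles 121 and 531), and the Pol II centre 290.0 bp (115.5 and 592). UBF was the nearer of both in 54.4% of the cases. The centres of UBF and Pol II stood on opposite sides of the H3K4me3 centre in 25.5% of the cases. Pairs were chosen for overlap, which by itself places both centres close together. Nothing is therefore read from that share or from the similar distances to the H3K4me3 centre. The lists carry no strand, and which side is upstream of a gene could not be told.

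The widest UBF peaks with and without Pol II differed in their active marks. The 10 widest UBF peaks with Pol II were 3574 to 6865 bp wide, and all 10 had the 3 active marks, 6 had H3K9me3 and 4 had Pol I. Among them, the UBF peak on chromosome 17 from 34254656 to 34259040 began just outside 1 Pol II peak and otherwise lay in it. That Pol II peak ran from 34254721 to 34260302. The 10 widest UBF peaks without Pol II were 2022 to 4509 bp wide. None had H3K4me3 or H3K9ac, 1 had H4 hyperacetylation, 4 had H3K9me3 and 1 had Pol I, and their gap to Pol II was between 3642 bp and 1193810 bp. A pair of them stood side by side on chromosome 7, from 71632951 to 71635634 and from 71635851 to 71638233, with none of the 5 further lists.

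The widest Pol II peaks were picked by their own width. UBF peaks had an upper quartile of 1194 bp, so a Pol II peak that outruns its UBF peak is largely given by that choice. Among the 10 widest that met UBF (6073 to 14344 bp), 9 contained a UBF peak of 1127 to 2193 bp. The exception was the interval on chromosome 17 from 39979856 to 39985933, where the UBF peak (6865 bp) exceeded the Pol II peak (6077 bp). This UBF peak also met 5 Pol I peaks, the widest of 3394 bp, which is the widest of the Pol I list. In each of the 4 histone lists, H3K9me3 included, it met 1 peak of 6010 to 6622 bp. The widest of the 10 Pol II peaks, on chromosome 19 from 5836813 to 5851157 (14344 bp), held 1 UBF peak of 2193 bp from 5843479 to 5845672. Of the 10 widest Pol II peaks without UBF (8742 to 39438 bp), all carried the 3 active marks. One of them, on chromosome 9 from 2999890 to 3038581 (38691 bp), was matched by 1 peak of 38902 to 39114 bp in each of the 4 histone lists, H3K9me3 included, and by no Pol I peak. Peaks of about one extent in lists for active and silent marks, on chromosome 17 as on chromosome 9, are not read here as joint occupancy. On chromosome 15 a Pol II peak from 97615945 to 97625892 lay 200 bp from the nearest UBF peak.

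Over large distances UBF followed Pol II only in part. The 19 autosomes and the X chromosome were divided into 2647 bins of 1 Mb. UBF and Pol II both had a peak centre in 1558 bins, UBF alone in 238 (with 315 UBF peaks), Pol II alone in 450 (with 4052 Pol II peaks) and neither in 401. Counts of UBF and Pol II per bin had a Spearman correlation of 0.31 (Pearson 0.29) over the 2246 bins with a peak of either list, and 0.49 (Pearson 0.37) over all 2647. These are descriptions: bins share gene density and mappability, and neighbouring bins are not independent. Bins with no peak of either list are absent from the first value, where a bin without Pol II is kept only if it holds UBF.

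UBF peaks with and without Pol II differed in how their counts ran with Pol II. Over the bins with a peak of either list, the Spearman correlation with Pol II was 0.55 for UBF peaks with Pol II and -0.16 for those without. Over all bins it was 0.62 with Pol II and 0.07 without, so the sign for UBF peaks without Pol II depended on which bins were counted. Mean counts of UBF peaks with Pol II were 0.337, 0.799, 1.11, 1.67 and 1.94 per bin in bins with 1 to 4, 5 to 9, 10 to 19, 20 to 39 and 40 or more Pol II peaks. Mean counts of UBF peaks without Pol II were 0.742, 0.794, 0.788, 0.659 and 0.558 in the same bins and 0.493 in the 639 bins without Pol II. A UBF peak is placed in the first group by meeting Pol II, so some rise of that group with Pol II is given by its definition. Taken whole, UBF averaged 2.49 peaks in bins with 40 or more Pol II peaks and 1.08 in bins with 1 to 4.

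**Figure D4:**
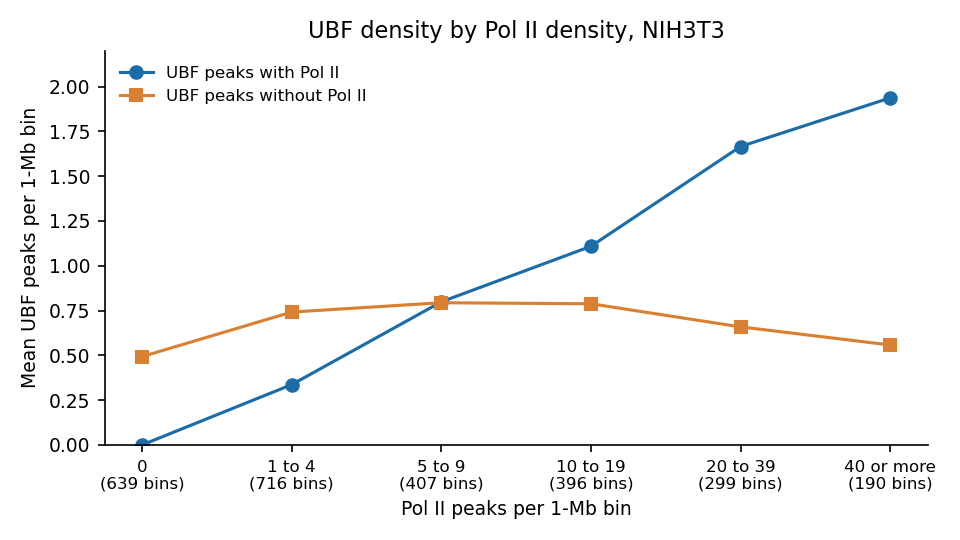
Mean number of UBF peaks per 1-Mb bin (vertical axis) by the number of Pol II peaks in the bin (horizontal axis, with the number of bins), for UBF peaks with Pol II (blue) and without (orange). The blue means run from 0 to 1.94 and the orange ones stay between 0.493 and 0.794.

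The bins richest in UBF were not those richest in Pol II. The most UBF peaks, 27, lay on chromosome 13 from 23000001 to 24000000, 26 of them with Pol II, beside 33 Pol II peaks. The bin from 21000001 to 22000000 of the same chromosome held 15 UBF peaks, 14 with Pol II, and 24 Pol II peaks. Next came chromosome 12 from 70000001 (10 UBF, 9 with Pol II, 32 Pol II), chromosome 3 from 96000001 (9 UBF, all with Pol II, 32 Pol II) and chromosome 11 from 115000001 (8 UBF, 7 with Pol II, 79 Pol II). In the mouse, the main cluster of replication-dependent histone genes lies on chromosome 13 and a smaller one on chromosome 3. The GRCm38 gene table lists 53 of 67 histone genes, matched by symbol, on chromosome 13 and 10 on chromosome 3. Its positions were not carried to mm9, so whether these bins hold them was not tested. The most Pol II peaks, 173 and 164, lay in adjoining bins of chromosome 10 from 79000001 to 81000000, which held 1 and 3 UBF peaks.

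Some bins had many sites of a single kind. Chromosome 3 from 31000001 and from 156000001 held 6 UBF peaks each and no Pol II, and chromosome 5 from 61000001 held 4. Conversely, chromosome 5 from 115000001 held 80 Pol II peaks, chromosome 7 from 30000001 held 63 and chromosome 11 from 119000001 held 62, all without UBF.

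Whole chromosomes also differed more in Pol II than in UBF. Pol II density on the autosomes ran between 67.3 peaks per 10 Mb on chromosome 14 and 256 on chromosome 11, a ratio of 3.81, while UBF ran between 10.4 per 10 Mb on chromosome 7 and 19.4 on chromosome 11, a ratio of 1.87. UBF with Pol II varied 2.79-fold over the autosomes, and UBF without Pol II varied 1.56-fold, between 5.61 and 8.77 per 10 Mb. Across the 19 autosomes, the Spearman correlation with Pol II density was 0.64 (Pearson 0.71) for UBF peaks with Pol II and -0.48 (Pearson -0.43) for those without, again as a description. With the X chromosome included, it was 0.69 (Pearson 0.75) with Pol II and -0.27 (Pearson -0.06) without, so the negative value was weaker. Here too, UBF peaks were divided by meeting Pol II, so some difference between both groups is given by definition. Pol II peaks per UBF peak were fewest on chromosome 13 (3.96) and most on chromosome 15 (14.4). The share of Pol II peaks with UBF was accordingly highest on chromosome 13, at 15.6% (13.3 to 18.3), and on the autosomes lowest on chromosome 7, at 4.09% (3.24 to 5.09). On the X chromosome Pol II had 28.3 peaks per 10 Mb. There 8 of 71 UBF peaks had Pol II (11.3%, 4.99 to 21.0), which is 0.480 per 10 Mb, against a lowest autosomal value of 4.64, while UBF without Pol II stood at 3.78 per 10 Mb.

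**Figure D5:**
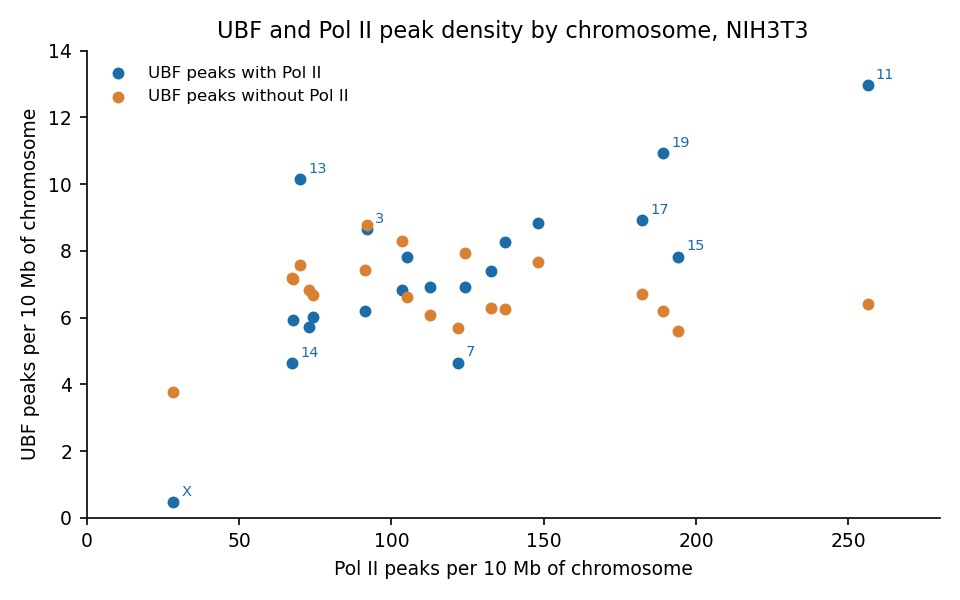
UBF peaks per 10 Mb (vertical axis) against Pol II peaks per 10 Mb (horizontal axis) for chromosomes 1 to 19 and X, each shown by 1 point for UBF peaks with Pol II (blue, some labelled by chromosome) and 1 for those without (orange). Blue points lie between 0.480 (X) and 12.97 (chromosome 11), and orange points between 3.78 (X) and 8.77 (chromosome 3).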

How the data were processed

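The authors deposited 1 peak list per antibody, with the chromosome, start and end of each peak in bp (unit: position) and no score. Per the submitters' processing notes, CASAVA 1.8.2, BWA and Picard were used with builds mm9 and hg19. No source used here gives the peak caller, its threshold, its filters or whether coordinates count from 0 or 1. Although 2 biological UBF replicates are named by the submitters, 1 list stands for them, and it is not stated whether they were pooled. The human lists were only counted, and genomic DNA inputs were not analysed here.

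Peaks sharing at least 1 bp were called overlapping. A centre is the midpoint of a peak, and bins are assigned by centre. Shares have Clopper-Pearson intervals. Analyses used Python 3.11.15, pandas 2.3.3 and scipy 1.17.1. The overlap code was tested on simulated lists of 3000 peaks, where 0%, 10% and 50% planted overlap came back as planted. Peaks named by position are the 10 widest of each kind, the UBF peaks with the most Pol II peaks and the fullest bins. The comparison, its width classes and the named sets were chosen with earlier results of these data known. No mm9 genome was used, so no sequence and no gene is given for a peak.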

Additional observations from a re-analysis of the deposited data

How the results depend on the processing

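No paired analysis was possible because each antibody has 1 list, and no replicate could be left out. The share of UBF peaks with Pol II was 51.2% on chromosomes 1 to 19 and X and 49.97% with centres within 1000 bp, both within the interval of the main value. It was 46.0% with at least 50% of the peak covered, 67.1% in the wider 50% of each list and, in a setting chosen after seeing the data, 44.6% with all peaks set to 500 bp. For Pol II peaks with UBF these last settings gave 5.73%, 8.46% and 5.53%, and joining Pol II peaks within 500 bp gave 7.32%. UBF peaks with several Pol II peaks fell to 3.46% in the wider lists and 0.321% after joining. The median distance to Pol II was 352 bp in the wider lists and 0 bp between nearest edges. The Spearman correlation of UBF and Pol II was 0.11 in 500-kb bins, 0.46 in 2-Mb bins and 0.49 over all bins. For UBF without Pol II it was -0.16 in bins with a peak of either list, -0.31 in 500-kb bins, -0.01 in 2-Mb bins and 0.075 over all bins, so its sign depended on the bins used. In settings added after the data were seen, H3K4me3 at UBF with Pol II was 96.1% in the wider lists and 86.6% by centres within 1000 bp, against 11.3% and 2.75% at UBF without Pol II. In the wider lists, UBF peaks that met only a removed, narrower Pol II peak counted as without Pol II. Unknown depth and peak threshold limit every share.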
